A study of Mus musculus with 6 samples.

Results

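Tight junction genes were followed in mammary tumors of NeuT/ATTAC mice by RNAseq. The group comprised 9 of the 54532 Ensembl gene IDs in the FPKM tables, named by gene symbol with earlier results of these data known. It held 6 claudins (Cldn1, Cldn3, Cldn4, Cldn5, Cldn7 and Cldn8), occludin (Ocln), the scaffold protein ZO-1 (Tjp1) and the junctional adhesion molecule JAM-A (F11r). All 9 were measured in each tumor, and all 9 passed the filter on low values described with the comparison of the groups.

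The comparison was of 3 tumor libraries after IgG with 3 after anti-PD-1, and where 3 values are given for a group they follow replicates 1, 2 and 3. All mice carried MMTV-NeuT, in which a mammary tumor virus promoter drives Erbb2 in the mammary epithelium, and FAT-ATTAC, a transgene that lets the dimerizer AP20187 ablate fat cells and so bring on mammary fibrosis. FAT-ATTAC came from a C57BL/6 background and was crossed into FVB. Both groups received 0.4 mg/kg AP20187 i.p. from 6 weeks of age, and from 8 weeks of age 100 μg of either isotype-matched IgG or the anti-PD-1 mAb 2 times per week. No group without AP20187 or without the NeuT transgene was analysed here, so the values describe fibrotic Erbb2 tumors only. A figure legend of the study speaks of RNA pooled from a larger number of tumors per group, and the labels number the replicates without naming animals. A library is called a tumor here, but whether each came from a single tumor is not known, and the p-values measure only the spread between these libraries, which may be technical.

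Tight junctions seal the space between neighboring epithelial or endothelial cells near their apical border. Claudins are membrane proteins that form the strands of the seal and set which ions can pass, occludin sits in the same strands, and JAM-A is an immunoglobulin-like adhesion protein that helps to place the junction. ZO-1 lies beneath the membrane, where its PDZ domains hold the tails of claudins and JAM-A and tie the junction to actin. In the mammary gland, luminal cells make Cldn1, Cldn3, Cldn4, Cldn7 and Cldn8, whereas Cldn5 is best known from blood vessels.

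The libraries held between 22009893 and 25596232 fragments each, as derived from the steps between FPKM values. The tumors were epithelial by their markers. Epcam, a surface protein of epithelial cells, lay between 690 and 1150 FPKM, and 8 luminal epithelial markers summed to between 1955 and 3673 FPKM. None of these 8 was at 0 in any tumor, which also held for the lists of basal, endothelial and fibroblast markers. The summed level of 8 adipocyte markers was between 3.77 and 15.8 FPKM, with the defining gene Adipoq at 1.19 FPKM or less and Car3 reaching 11.2 FPKM in IgG replicate 2. Summed over 6 skeletal muscle markers, IgG replicate 2 and anti-PD-1 replicates 1 and 2 held between 79.8 and 154 FPKM and the other 3 tumors between 7.81 and 10.3 FPKM. IgG replicate 1 was closer in its whole profile to the anti-PD-1 tumors (Pearson r across genes, which are not independent, from 0.951 to 0.958) than to the other IgG tumors (r = 0.937 and 0.935). In bulk tumors, fewer cells of a type and less RNA per cell cannot be told apart.

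Promoter sequences are shown for Cldn3 and Cldn4, since they are, respectively, the member with the highest level and the member that varied most between tumors, and since they are neighbors. Cldn4 (minus strand, chromosome 5 from 134945119 to 134946934) and Cldn3 (plus strand, chromosome 5 from 134986214 to 134987472) each consist of a single exon in the GRCm38 annotation. The stretches are the 250 bases before the RefSeq start (GRCm38.p6), chr5:134985964-134986213 on the plus strand for Cldn3 and chr5:134946935-134947184 on the minus strand for Cldn4. Capitals mark the E-box CAGGTG, read on either strand, a motif that Snail and Zeb repressors can bind.
Cldn3: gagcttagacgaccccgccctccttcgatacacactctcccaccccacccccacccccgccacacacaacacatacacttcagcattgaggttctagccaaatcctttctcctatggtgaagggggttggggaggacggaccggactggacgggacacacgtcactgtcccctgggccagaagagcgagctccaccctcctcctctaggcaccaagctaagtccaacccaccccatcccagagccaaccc
Cldn4: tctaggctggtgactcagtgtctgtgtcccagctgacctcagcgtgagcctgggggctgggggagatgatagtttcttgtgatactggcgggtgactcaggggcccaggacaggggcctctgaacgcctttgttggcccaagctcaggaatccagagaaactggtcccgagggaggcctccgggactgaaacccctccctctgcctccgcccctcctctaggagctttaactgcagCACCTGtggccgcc
The Cldn4 stretch held 1 E-box, 9 to 14 bases before the start, and the Cldn3 stretch held none. Promoters were found in the RefSeq table for 8 of the 9 genes (10 start sites), and the E-box occurred in 4 of the 10 stretches (1 each of Cldn4, Cldn7, Ocln and F11r). Of all 32851 promoters of the same length, 17.2% held it. The GC box GGGCGG occurred in 9 of the 10 stretches and in 32.7% of all promoters. The stretches were rich in G and C, with 51.2% to 69.2% beside a median of 52.4% over all promoters, and the shares of all promoters were not adjusted for base composition. The letters AACCGGTT, bound by grainyhead factors, were in none of the 10 stretches and in 0.116% of all promoters, and TATAAA was in none of the 10 and in 12.4%. These matches describe the sequence only.

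The levels of the 9 genes spanned more than 2 orders of magnitude. Ranked by mean FPKM over the 6 tumors, the order was Cldn3 (346 FPKM), Cldn7 (90.1), Cldn4 (81.3), F11r (75.9), Cldn1 (38.6), Tjp1 (21.5), Ocln (13.4), Cldn8 (8.22) and Cldn5 (1.04). Within the groups Cldn4 and F11r changed places, with means of 61.1 and 72.6 FPKM in IgG tumors and 101.4 and 79.3 FPKM in anti-PD-1 tumors. FPKM is scaled by exon length, here the merged length of all annotated exons, so genes can be compared on it. The level of a gene whose transcripts use only part of these exons is understated. Cldn3 stood at percentile 99.4 of the 15069 genes tested and Cldn5 at percentile 14.4. Within tumors, neighbors in this order were compared on log2(FPKM + 1) with a two-sided exact permutation test over the 6 tumors, whose smallest p is 0.031. The order was set on the same values, so the direction of a step is no independent result. Cldn3 was above Cldn7 in 6 of 6 tumors, with a mean log2 difference of 1.94 ± 0.20 (SD over tumors). The steps from F11r to Cldn1 (0.98 ± 0.20), from Cldn1 to Tjp1 (0.79 ± 0.30), from Tjp1 to Ocln (0.65 ± 0.21) and from Cldn8 to Cldn5 (2.04 ± 0.74) also ran the same way in 6 of 6 tumors. These 5 steps reached the smallest exact p, which is 0.05 after Benjamini-Hochberg adjustment over the 8 steps, at the threshold and not under it. Neither Cldn7 and Cldn4 nor Cldn4 and F11r differed beyond their spread. The order within each of these pairs changed from tumor to tumor (exact p = 0.281 for Cldn7 and Cldn4, and 0.844 for Cldn4 and F11r). The mean log2 difference of Cldn4 from F11r, -0.12, ran against their rank by mean FPKM. Cldn7 and F11r are not neighbors in this order and were not tested against each other, and Cldn7 was above F11r in every tumor but IgG replicate 3. Ocln was above Cldn8 in 5 of 6 tumors (exact p = 0.0625), the exception being IgG replicate 3.

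**Figure D1:**
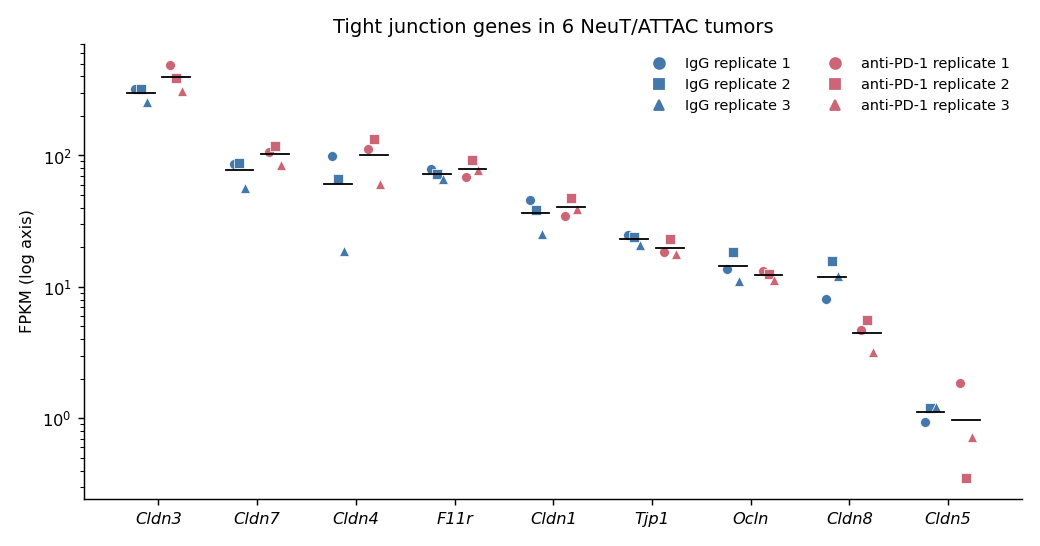
FPKM of the 9 tight junction genes in each tumor on a log axis, ordered by mean level, with IgG tumors in blue, anti-PD-1 tumors in red, the marker shape giving the replicate number and the black lines the group means of 3 tumors. Cldn8 is the gene in which the groups do not overlap, and Cldn4 has the widest spread among IgG tumors, from 18.9 to 98.7 FPKM.

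The groups were compared with limma on log2(FPKM + 1), two-sided, over the 15069 genes whose FPKM averaged 0.5 or more, with Benjamini-Hochberg adjustment over all of them. On this scale a fold change of a low gene is understated. Of the 9 genes, 1 (Cldn8) was lower after anti-PD-1 than after IgG at an unadjusted p under 0.05, where 12.3% of all genes tested passed this threshold in either direction and 6.05% were lower. The remaining 8 genes, among them the highly expressed Cldn3, Cldn7, Cldn4 and F11r, did not pass. None of the 9 had a limma adjusted p under 0.05, which 0% of all genes tested had, against 1848 genes at an unadjusted p under 0.05. Limma's voom on the recovered reads gave 1 gene of 14386 at an adjusted p under 0.05, not one of the 9, and 1828 at an unadjusted p under 0.05. The median log2 fold change of the 9 genes was 0.13, beside 0.01 over all genes tested, with 5 genes higher and 4 lower in their means. The sign of this median was not stable, since it was -0.037 with quantile normalization and -0.059 without IgG replicate 3. With 1 of 9 genes called, the share was close to that of all genes.

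**Figure D2:**
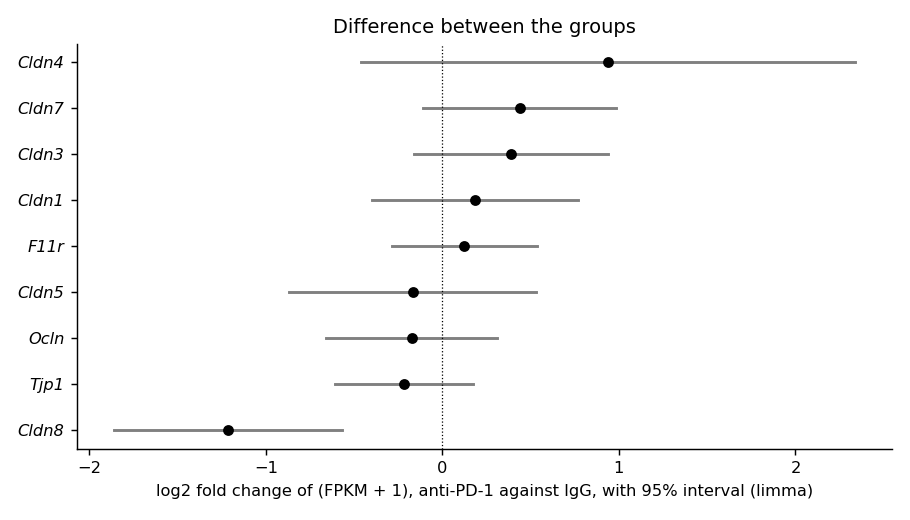
Log2 fold change of FPKM + 1 in anti-PD-1 against IgG tumors for each gene (points) with its 95% interval from limma (lines), 3 tumors per group. The interval of Cldn8 runs from -1.86 to -0.57, and the intervals of the other 8 genes include 0.

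Cldn8 (ENSMUSG00000050520, a single exon on the minus strand of chromosome 16 from 88560828 to 88563183) encodes a claudin that tightens the barrier against cations. It had 8.02, 15.7 and 12.2 FPKM under IgG against 4.73, 5.57 and 3.18 FPKM under anti-PD-1. Every anti-PD-1 tumor lay below every IgG tumor, with IgG replicate 1 nearest to the anti-PD-1 tumors. Without overlap in this direction were 8.75% of all genes tested, and 18.1% in either direction. The means were 12.0 ± 3.84 FPKM (SD, n = 3) in IgG and 4.49 ± 1.21 FPKM (SD, n = 3) in anti-PD-1 tumors. This gave a log2 fold change of -1.21 (standard error 0.28, limma adjusted p = 0.344, unadjusted p = 0.00290). The two-sided exact permutation test gave p = 0.1, the smallest that 3 tumors against 3 allow. Each value rested on 178 to 887 reads, so counting error was small beside the spread between tumors. Leaving out any 1 tumor kept the log2 fold change between -1.45 (without IgG replicate 1) and -1.02 (without IgG replicate 2), and the unadjusted limma p between 0.00102 and 0.0116.

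As a description that rests on the same Cldn8 values and was chosen after they were seen, each of the other 8 genes was subtracted from Cldn8 in the same tumor on the log2(FPKM + 1) scale. Between the groups these differences differed by -2.15 (against Cldn4) to -0.996 (against Tjp1), and the groups overlapped in the difference from Cldn5 and in none of the other 7. Cldn8 minus Cldn7, for example, stood at -3.27, -2.42 and -2.13 under IgG against -4.23, -4.19 and -4.35 under anti-PD-1.

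Cldn3 (ENSMUSG00000070473), a sealing claudin of luminal epithelium, had the highest level of the 9 genes. It had 318, 320 and 256 FPKM under IgG against 491, 385 and 308 FPKM under anti-PD-1. The groups overlapped through anti-PD-1 replicate 3. The log2 fold change was 0.39 (95% interval from -0.16 to 0.94, limma adjusted p = 0.521; exact permutation test, p = 0.3). Leaving out anti-PD-1 replicate 1 gave a log2 fold change of 0.22. The antisense gene Wbscr25 overlaps Cldn3 by 40 exon bases and stood at 1.11 FPKM or less, and use of strand in the counting is not given in the sources used here.

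Cldn4 (ENSMUSG00000047501), a claudin that restricts sodium and is also found outside junctions, varied most. It had 98.7, 65.6 and 18.9 FPKM under IgG against 112, 133 and 60.2 FPKM under anti-PD-1. The highest tumor held 7.03 times the FPKM of the lowest, and the pooled SD within groups, 0.95 on the log2 scale, lay at percentile 97.1 of all genes tested, whose median was 0.27. The groups overlapped, with a log2 fold change of 0.94 (95% interval from -0.46 to 2.34, limma adjusted p = 0.547; exact permutation test, p = 0.3). The value rested on IgG replicate 3. Without it the log2 fold change was 0.26, and without IgG replicate 1 it was 1.42 with an unadjusted limma p of 0.0443.

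Cldn7 (ENSMUSG00000018569, chromosome 11 from 69964779 to 69967885), a claudin of the lateral as well as the apical membrane that binds Epcam, had 85.9, 88.2 and 56.8 FPKM under IgG. Under anti-PD-1 it had 106, 119 and 84.5 FPKM. One anti-PD-1 tumor, replicate 3, lay within the IgG range. The log2 fold change was 0.44 (95% interval from -0.11 to 0.98, limma adjusted p = 0.474; exact permutation test, p = 0.3), and it was 0.23 without IgG replicate 3. Epcam itself was between 690 and 885 FPKM in IgG and between 988 and 1150 FPKM in anti-PD-1 tumors, without overlap, and its log2 fold change of 0.43 did not pass the unadjusted threshold.

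Cldn1 (ENSMUSG00000022512, chromosome 16 from 26356642 to 26371841), needed for the barrier of the epidermis, had 45.8, 38.7 and 25.1 FPKM under IgG. It had 34.8, 47.9 and 39.2 FPKM under anti-PD-1, and the groups were interleaved. The log2 fold change was 0.18 (95% interval from -0.40 to 0.77, limma adjusted p = 0.795; exact permutation test, p = 0.6). It was -0.059 without IgG replicate 3 and 0.36 without IgG replicate 1. IgG replicate 3 was the lowest tumor for Cldn1, Cldn3, Cldn4, Cldn7, Ocln and F11r, and anti-PD-1 replicate 2 was the highest for Cldn1, Cldn4, Cldn7 and F11r. Ocln and Cldn8 were highest in IgG replicate 2.

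Cldn5 (ENSMUSG00000041378, chromosome 16 from 18776847 to 18778262) was the lowest of the 9 genes. It had 0.931, 1.21 and 1.22 FPKM under IgG against 1.85, 0.349 and 0.714 FPKM under anti-PD-1. The anti-PD-1 tumors lay on both sides of the IgG tumors. Each value rested on 12 to 67 reads, the fewest of the 9 genes, so its counting error was larger than theirs. The log2 fold change was -0.17 (95% interval from -0.87 to 0.53, limma adjusted p = 0.845; exact permutation test, p = 0.7), and it was 0.071 without anti-PD-1 replicate 2. Adding 0.1 in place of 1 gave -0.43 and voom on the recovered reads gave -0.50, neither passing the unadjusted threshold. The same tumor was lowest for a list of 10 endothelial markers, whose summed FPKM ran from 27.0 to 36.2 in IgG tumors and from 18.9 to 34.8 in anti-PD-1 tumors. None of the 10 was at 0 in any tumor. Relative to the mean log2(FPKM + 1) of these markers, Cldn5 ran from -1.02 to -0.63 in IgG and from -0.98 to -0.44 in anti-PD-1 tumors, with an exact permutation p of 0.9. The part of vessel content in the level of Cldn5 was not tested.

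Ocln (ENSMUSG00000021638, chromosome 13 from 100496507 to 100552718) had 13.7, 18.5 and 11.1 FPKM under IgG against 13.3, 12.6 and 11.3 FPKM under anti-PD-1. All anti-PD-1 tumors lay within the IgG range. The log2 fold change was -0.17 (95% interval from -0.66 to 0.31, limma adjusted p = 0.756; exact permutation test, p = 0.6), and it was 0.0021 without IgG replicate 2. Tjp1 (ENSMUSG00000030516, chromosome 7 from 65296165 to 65527781) had 24.9, 24.1 and 20.7 FPKM under IgG against 18.4, 23.3 and 17.8 FPKM under anti-PD-1. In the annotation Gm44792, Gm44794 and Gm44795 overlap it and share no exon bases with it. The Tjp1 groups overlapped through anti-PD-1 replicate 2, with a log2 fold change of -0.22 (95% interval from -0.61 to 0.17, limma adjusted p = 0.617; exact permutation test, p = 0.2). The value for Tjp1 was -0.33 without anti-PD-1 replicate 2 and -0.14 without anti-PD-1 replicate 3. F11r (ENSMUSG00000038235, chromosome 1 from 171437535 to 171464603) had 79.2, 72.9 and 65.7 FPKM under IgG against 68.2, 91.7 and 78.1 FPKM under anti-PD-1. The groups of F11r were interleaved, with a log2 fold change of 0.13 (95% interval from -0.28 to 0.53, limma adjusted p = 0.799; exact permutation test, p = 0.5). The value for F11r was 0.023 without anti-PD-1 replicate 2, 0.23 without anti-PD-1 replicate 1 and -0.037 with quantile normalization. Tjp1 and F11r had the steadiest levels, with the highest tumor 1.40 times the lowest in each and pooled SDs within groups at percentiles 20.3 and 21.9 of all genes tested.

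The make-up of the claudin transcripts was dominated by 4 genes. Over 24 claudin genes, the summed level was 603, 590 and 429 FPKM under IgG against 785, 736 and 538 FPKM under anti-PD-1 (exact permutation test, p = 0.3). Cldn3 made up between 52.3% and 62.5% of the sum in the 6 tumors, with a mean of 56.4%. Cldn7, Cldn4 and Cldn1 followed with mean shares of 14.6%, 12.5% and 6.37%. The share of Cldn4 was lowest in IgG replicate 3, at 4.4%, and highest in anti-PD-1 replicate 2, at 18.0%. Cldn8 made up 1.33%, 2.66% and 2.83% of the sum under IgG against 0.602%, 0.756% and 0.592% under anti-PD-1, without overlap (exact permutation test, p = 0.1). The shares of Cldn2 (1.18%, 5.92% and 4.36% against 0.947%, 0.189% and 0.198%) and Cldn12 (1.03%, 1.36% and 1.59% against 0.772%, 0.807% and 0.920%) did not overlap either, with the same exact permutation p. A share depends on the sum as well as on the gene. In FPKM the Cldn2 groups overlapped. Those of Cldn12 did not, and its log2 fold change of -0.26 did not pass the limma unadjusted threshold. In FPKM 18.1% of all genes tested did not overlap in either direction, and no such background was made for shares.

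**Figure D3:**
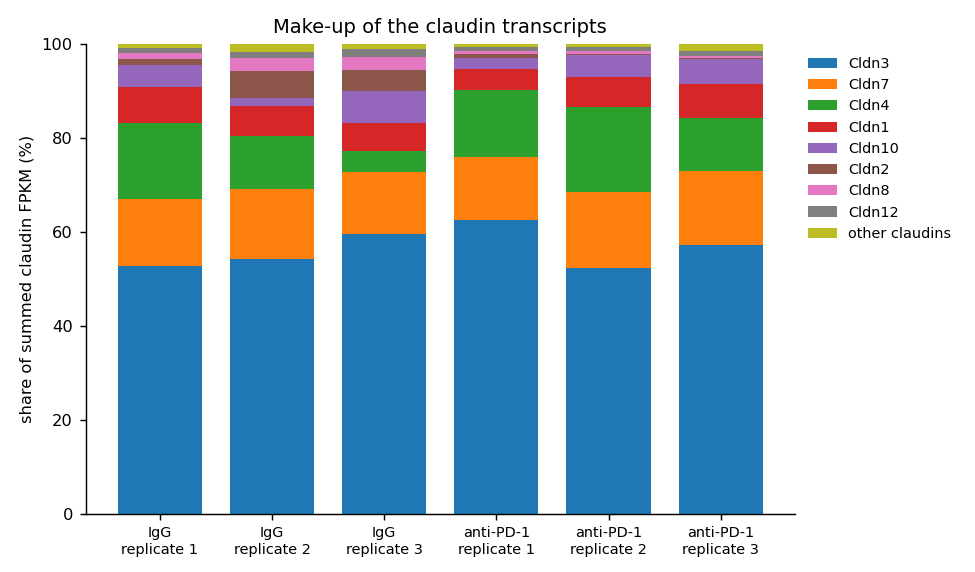
Share of each claudin in the summed FPKM of 24 claudin genes (stacked bars, in percent), 1 bar per tumor. Cldn3 fills between 52.3% and 62.5% of each bar, and the bands of Cldn2 and Cldn8 are narrower in the anti-PD-1 tumors.

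Among the claudins that were not members, 5 of 18 found in the tables were tested and 1 passed the unadjusted threshold. Cldn2, which forms a pore for cations and water in leaky epithelia, was lower in anti-PD-1 tumors. It had 7.15, 34.9 and 18.7 FPKM under IgG against 7.44, 1.39 and 1.06 FPKM under anti-PD-1. IgG replicate 1 lay just below anti-PD-1 replicate 1, so the groups overlapped. The log2 fold change of Cldn2 was -2.36 (standard error 0.68, limma adjusted p = 0.344). The other 4 claudins tested were Cldn10, Cldn12, Cldn20 and Cldn23, and the remaining 13 were too low to be tested. Cldn10 had 28.1, 9.21 and 29.9 FPKM under IgG against 17.7, 33.9 and 28.3 FPKM under anti-PD-1, with a log2 fold change of 0.36 that did not pass.

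Of 9 other membrane proteins of tight junctions that were tested, such as tricellulin (Marveld2) and Lsr, 0 passed the limma unadjusted threshold in either direction, and their median log2 fold change was 0.05. Of 24 cytoplasmic proteins tested, 0 were higher and 3 were lower at an unadjusted p under 0.05, with a median log2 fold change of -0.17. These were Patj, a scaffold of the Crumbs polarity complex, with a log2 fold change of -0.65, the atypical protein kinase C Prkcz with -0.71, and the angiomotin relative Amotl1 with -0.59. The groups did not overlap in these 3 genes, which had been picked by their p, and 8.75% of all genes tested were lower without overlap. Patj and Prkcz lie on chromosome 4 and Amotl1 on chromosome 9, where the median log2 fold change of all genes tested was -0.40 and -0.36. The part of these chromosomes in the 3 values was not tested. None of the 9 members lies on chromosome 4 or 9, and the medians of the 6 chromosomes that carry them lay between 0.03 and 0.08.

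Of 6 genes for partners of claudin-7 and membrane proteases, 1 was lower at an unadjusted p under 0.05. It was St14, the protease matriptase, with a log2 fold change of -0.88 and a position on chromosome 9. Of 9 adherens junction genes 0 passed the limma unadjusted threshold, and Cdh1, which encodes E-cadherin, had a log2 fold change of -0.34. Of 9 desmosome genes, 2 were higher and 0 were lower. Perp, a membrane protein of desmosomes that is also a p53 target, had 75.3, 66.5 and 94.5 FPKM under IgG against 118, 116 and 171 FPKM under anti-PD-1 (log2 fold change 0.77). Periplakin (Ppl) had a log2 fold change of 0.34. Over all 62 tested genes of these junction lists, 2 were higher and 5 were lower, with a median log2 fold change of -0.02, and 0 had a limma adjusted p under 0.05. Of all genes tested 12.3% passed the same unadjusted threshold, 6.05% being lower, so these counts were near the share over all genes.

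Transcription factors known to repress claudins and occludin were low. Of 6 EMT transcription factors 5 were tested and 0 passed the limma unadjusted threshold. Snai1 lay between 1.11 and 4.48 FPKM, and Snai2, Zeb1 and Zeb2 lay at 1.11 FPKM or less in every tumor. Snai1 had a log2 fold change of -0.01. Of 10 epithelial transcription factors and splicing regulators tested, 1 was higher and 2 were lower, where 12.3% of all genes tested passed in either direction. Grhl2, a grainyhead factor known to activate Cldn4, had 12.7, 11.8 and 9.87 FPKM under IgG against 12.9, 19.9 and 19.2 FPKM under anti-PD-1, with a log2 fold change of 0.54 (limma adjusted p = 0.378). Its relative Grhl1 had a log2 fold change of -1.03, and the splicing regulator Esrp1, on chromosome 4, one of -0.60.

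Each member was also set against luminal epithelial content. The mean log2(FPKM + 1) of 8 luminal epithelial markers (Krt8, Krt18, Krt19, Krt7, Epcam, Cdh1, Muc1 and Esrp1) was subtracted within each tumor. Their summed level ran from 1955 to 2687 FPKM in IgG and from 2557 to 3673 FPKM in anti-PD-1 tumors, and their mean log2 level did not separate the groups, although Krt7 was higher (log2 fold change 1.07) and Krt19 (-2.03) and Esrp1 were lower at an unadjusted limma p under 0.05 (exact permutation test, p = 0.8). Relative to these markers the groups did not overlap in 3 of the 9 genes, where 9.13% of all genes tested did not overlap. Cldn3 was higher in anti-PD-1 tumors by 0.48 on the log2 scale, Cldn7 was higher by 0.52, and the difference for Cldn8 was -1.13 (exact permutation test, p = 0.1 each). In IgG replicate 2 the luminal mean was raised by Krt19, at 77.9 FPKM against 7.84 FPKM or less in the other tumors. Without Krt19 in the list, an alternative added after seeing the data, the groups did not overlap in Cldn8 (-1.41), Ocln (-0.37) and Tjp1 (-0.41), and Cldn3 and Cldn7 overlapped. Under this list 18.9% of all genes tested did not overlap, 16.6% being lower in anti-PD-1 tumors and 2.38% higher. Cldn8 was thus the gene without overlap under both lists.

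**Figure D4:**
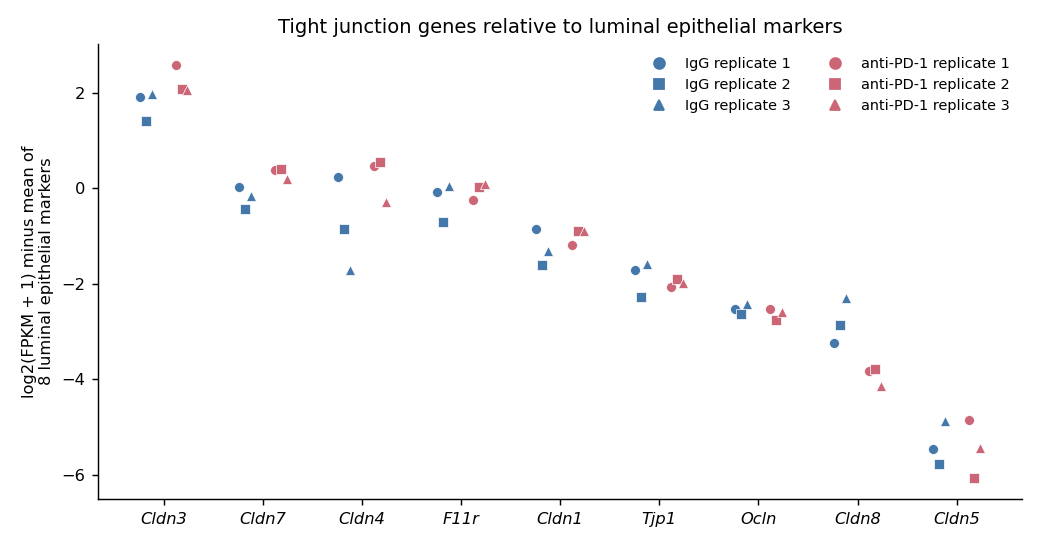
Log2(FPKM + 1) of each gene minus the mean of 8 luminal epithelial markers in the same tumor, with IgG tumors in blue, anti-PD-1 tumors in red and the marker shape giving the replicate number. Cldn8 lies between -3.23 and -2.30 in IgG tumors and between -4.15 and -3.79 in anti-PD-1 tumors.

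Markers of other cells that could carry claudins were compared in the same way. The summed level of 8 basal and myoepithelial markers ran from 24.1 to 30.6 FPKM in IgG and from 17.7 to 44.2 FPKM in anti-PD-1 tumors. The mean log2 level of these markers was higher in every IgG tumor than in every anti-PD-1 tumor, with an exact permutation p of 0.1, moving with Cldn8, and among the 7 that were tested Krt17 passed with a log2 fold change of -0.66. Oxtr (-0.77), Krt5 (-0.52), Krt14 (-0.42), Cnn1 (-0.35) and Myh11 (-0.25) did not pass, nor did Acta2, the most abundant of the list, whose log2 fold change of 0.55 had the opposite sign. Krt5, Krt14 and Trp63 were between 0.135 and 2.99 FPKM. Epidermal markers were low, with a sum of 4.68 FPKM or less over 6 genes. Krt10 (0.819 to 1.29 FPKM) and Sbsn (1.54 to 2.72 FPKM) were above 0 in every tumor, and Flg lay at 0.00435 FPKM or less. The summed level of 8 leukocyte markers ran from 36.1 to 46.9 FPKM in IgG and from 50.9 to 68.8 FPKM in anti-PD-1 tumors. Their mean log2 level was also without overlap, being higher in the anti-PD-1 tumors with an exact permutation p of 0.1. The margin was small, with 2.081 in IgG replicate 1 and 2.085 in anti-PD-1 replicate 1. Of the 6 leukocyte markers that were tested, Cd68 passed with a log2 fold change of 0.76, and Adgre1 (0.0055), Ptprc (0.03), Csf1r (0.11), Itgam (0.31) and S100a8 (1.09) did not. The T cell gene Cd3e and Cd79a were too low to be tested, and both were highest in IgG replicate 2 (0.306 and 1.40 FPKM). Summed fibroblast markers ran from 81.8 to 242 FPKM in IgG and from 93.6 to 345 FPKM in anti-PD-1 tumors. The part of these cell types in the level of Cldn8 was not tested.

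Genes with the most similar pattern were sought for each member by Pearson's r of log2(FPKM + 1) over the 6 tumors, among protein-coding genes whose FPKM averaged 2 or more. With 6 tumors and 10219 candidates (10220 for Cldn5), high values of r are common, and they are given as a description. For Cldn8 the closest genes were Fdx1 (r = 0.997, chromosome 9), Itpk1 (0.996, chromosome 12) and Ttc4 (0.995, chromosome 4), and 410 genes had r above 0.9. For the other members between 74 and 238 genes did. The closest genes were Ndufaf8, Dzip3 and Metap2 for Cldn1 (r from 0.989 to 0.993), Rbm8a, Eif2b5 and Homez for Cldn3 (0.978 to 0.983) and Cdca4, Mrps28 and Isg20 for Cldn4 (0.99 to 0.993). They were Man2a1, Gpr153 and Map3k11 for Cldn5 (0.967 to 0.980), Caml, Hmgn1 and Ptges3 for Cldn7 (0.982 to 0.988) and Aifm2, Gskip and Cd2ap for Ocln (0.983 to 0.995). For Tjp1 they were Smc5, Akr1e1 and Cdc40 (0.983 to 0.994), and for F11r they were Rabl3, Rnmt and Lyst (0.973 to 0.983). No member was among the 3 closest genes of another member.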

How the data were processed

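RNAseq values of 6 mammary tumors, 3 IgG and 3 anti-PD-1, were analyzed, with groups and replicate numbers taken from the sample labels. Per the labels and the methods of the study, the authors checked reads with FastQC 0.11.9, trimmed them with cutadapt 3.5 and aligned and counted them with RSEM 1.3.1 on an Ensembl mm10 reference indexed with Bowtie2 2.4.1. Each tumor has a table of 54532 Ensembl gene IDs with FPKM as deposited. How FPKM was made from the counts is not given in the sources used here.

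Symbols, positions and merged exon lengths came from GENCODE release M21 (GRCm38), which matched 54495 of the IDs. FPKM multiplied by exon length was a whole multiple of 1 read, within 0.1, for between 97.0% and 97.3% of the values above 0 in each tumor, which gave the reads behind a value. Reads shared between claudin paralogs could not be separated. FPKM was divided by median-of-ratios factors (1.00 to 1.01) and set on the log2(FPKM + 1) scale. Genes averaging 0.5 FPKM or more were tested with limma 3.58.1 (lmFit, eBayes with an intensity trend) in R 4.3.3. The study tested counts with DESeq2, for which FPKM is not suited. Exact permutation tests were two-sided. The scripts were tested on simulated reads in which 197 of 14203 genes had a log2 fold change of 2 in either direction. At an adjusted p under 0.05, 196 of them were recovered, beside 23 false calls. The median estimate was 1.84 for higher and -1.51 for lower genes, so decreases were understated more. Annotation and figures were made in Python 3.11.15 with pandas 2.3.3 and matplotlib 3.10.9.

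The members and lists were chosen with earlier results of these data known. Named from the other lists were the genes with the smallest p in each direction (at most 2) among those at an unadjusted p under 0.05, genes where a count was 5 or fewer, and genes given as examples, which were chosen after their values were seen. Of the listed genes, Igsf5 and Cldn25 were not matched to 1 ID and were not analysed here.
Alternatives were voom on the recovered reads, a replicate block, quantile normalization, FPKM without the factors, 0.1 added in place of 1, an average of 2 FPKM or no minimum as the filter, a constant prior variance in eBayes, and leaving out each tumor.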

Additional observations from a re-analysis of the deposited data

How the results depend on the processing

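Cldn8 was lower in anti-PD-1 tumors at an unadjusted limma p under 0.05 under all 14 alternatives, with log2 fold changes from -1.45 to -1.02 and an adjusted p of 0.766 or less that was lowest, at 0.10, without IgG replicate 1. The number of the 9 genes (8 with the filter at an average of 2 FPKM, which Cldn5 did not pass) at an unadjusted p under 0.05 was 1 under all alternatives but 2. With the replicate number as a block it was 3 (Cldn4, Cldn7 and Cldn8), and leaving out 1 tumor it ran from 1 to 2, the latter without IgG replicate 1. The numbers are not known to pair the tumors, since deviations of same-numbered tumors correlated above 0.1 in 1 of 3 pairs and 2 of 6 tumors correlated best with their own number. The block moved no other call among the 9 genes. The median log2 fold change of the 9 genes ranged from -0.059 (without IgG replicate 3) to 0.22 (without anti-PD-1 replicate 1) when 1 tumor was left out. Single genes changed sign in 4 fits, F11r with quantile normalization (-0.037) and, leaving out 1 tumor, Cldn1 (from -0.059 to 0.36), Cldn5 (from -0.47 to 0.071) and Ocln (from -0.34 to 0.0021), and the cause was not tested. Relative to luminal epithelial markers, the number of genes without overlap ran from 3 to 5 with 1 tumor left out, 5 being without IgG replicate 1, where 16.8% of all genes tested did not overlap (13.4% to 25.9% over the 6 fits). Steps in the order of levels could not reach an exact p under 0.05 with 5 tumors, where the smallest is 0.0625. The count with an adjusted p under 0.05 over all genes was 12 without IgG replicate 1 and at most 1 otherwise, with 0 of the 9 genes in each fit, and the count at an unadjusted p was 957 leaving out IgG replicate 2 and 2687 leaving out IgG replicate 1, the range over all fits. Depth limits Cldn5 most, at 12 to 67 reads.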
